A study of Rattus norvegicus with 2 samples.

Results

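Matrix metalloproteinases (MMPs), ADAM and ADAMTS proteases, their tissue inhibitors (TIMPs), plasminogen activators, HtrA proteases and serpins were examined in cultured rat brain oligodendrocyte precursors (OPCs), the progenitors of the cells that wrap axons in myelin. The members were all genes of the deposited table whose symbol starts with Mmp, Adam followed by a digit, Adamts or Serpin with a clade letter, together with Timp1 to Timp4, Plat, Plau, Plaur, Reck and Htra1 to Htra4. Adam10 was left out by the same rule. This gave 84 members of 17202 genes. The Aβ culture was labelled wild type (WT) and received 1 µM amyloid-beta, the peptide of Alzheimer plaques, for 2 days, and the control culture was also labelled WT and was given the treatment DMSO. Both were grown in OGM medium. Each condition had 1 library, so no test could be run, no difference was checked in a replicate, and a treatment effect cannot be told apart from variation between cultures. The labels speak of adult cells in the extraction text and of developing rats in the design, and the sample titles carry the tag P1, which the labels do not explain, so the donors' age is left unstated. The protocol text is the same for both samples and names amyloid-beta alone.

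Matrix proteases and their inhibitors work in pairs. MMPs and ADAMTSs cut collagens, proteoglycans and other matrix proteins, while ADAMs are mostly membrane proteins that release the outer part of receptors, ligands and adhesion molecules. TIMPs block MMPs and some ADAMs, and serpins trap serine proteases such as the plasminogen activators. In the OPC lineage this network is known for clearing a path through brain matrix during migration and process extension and for cutting chondroitin sulfate proteoglycans.

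The depth was 15117102 estimated counts with Aβ and 15019416 with DMSO. All 7 OPC identity genes were measured. They summed to 2183 TPM with Aβ and 2106 TPM with DMSO (a level per transcript length, scaled to 1 common sum). Levels ran from Olig1, at 850 TPM with Aβ and 841 TPM with DMSO, to Cspg4, at 14.4 and 13.2 TPM. Astrocyte markers were high as well, with Gfap at 838 TPM with Aβ and 793 TPM with DMSO, and all 6 astrocyte markers were measured. Their summed level was 1893 TPM with Aβ and 1806 TPM with DMSO, and the sums had a ratio of 1.018 in counts. Ratios of Aβ over DMSO were above 1 for 3 astrocyte markers and below 1 for 3. Counting intervals lay above 1 for Gfap, at 1.03 (1.01 to 1.05), and Slc1a3, at 1.026 (1.002 to 1.05). That of Aldh1l1 lay below 1, at 0.883 (0.809 to 0.963), from 978 counts with Aβ and 1099 with DMSO. Summed levels were 10.8 and 14.2 TPM for 6 microglial markers, 5.37 and 4.93 TPM for the 5 fibroblast and pericyte markers in the table, and 0.85 and 1.08 TPM for the 3 endothelial ones, each with Aβ first. In the fibroblast and pericyte list, Col1a2 had 129.3 counts with Aβ and 81.2 with DMSO (ratio 1.58, 1.19 to 2.11). The other measured markers, Col1a1 and Pdgfrb, had 36 and 97 counts with Aβ, against 39 and 106 with DMSO. Their ratios were 0.916 (0.566 to 1.48) and 0.908 (0.682 to 1.21). Lum and Rgs5 had 0 counts with Aβ, against 2 and 1 counts with DMSO. Neuronal markers, all 5 of them measured, summed to 65.9 TPM with Aβ and 64.7 TPM with DMSO, and the 6 markers of mature oligodendrocytes to 60.4 and 58.0 TPM. Several members are also known from astrocytes, and the part of these other cells in the results was not tested. In bulk RNA, fewer cells of a type and less RNA per cell cannot be told apart.

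The well-counted genes of this set had similar levels with Aβ and DMSO, and for the low ones the counts left wide intervals. A gene was counted as measured at 1 CPM (counts scaled to the effective library size) or more in at least 1 library, which held for 62 of the 84 members. No measured member was called different, where a call required a log2 ratio of at least 1 in size (2-fold, on CPM + 0.5) and a 95% counting interval that left out a ratio of 1. The same rule called 0.696% of the 13510 measured genes, 0.266% as higher and 0.429% as lower with Aβ, so a count of 0 among 62 is near that background. At 1.5-fold no member was called either, against 1.75% of measured genes. The median log2 ratio of the 62 members was -0.02, beside -0.0007 for all measured genes. A ratio above 1 was found for 28 members and a ratio below 1 for 34, and 49.7% of all measured genes lay above 1. All ratios are Aβ over DMSO, and their exact intervals cover counting error only.

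Precision followed depth. The 37 members with at least 10 CPM in either library all lay within 1.2-fold, between 0.852 for Adam8 and 1.10 for Adam9. Of the 10322 genes at that level, 4.19% lay beyond 1.2-fold, so 0 of 37 members is near that background. The 17 members with at least 1000 counts in both libraries had ratios from 0.938 to 1.10. The 20 measured members with fewer than 100 counts in both had ratios from 0.640 to 1.56. Intervals that stayed inside 1.5-fold on both sides were found for 41 of 62 members (66.1%) and for 80.0% of all measured genes. At the edge of the filter, Serpine3 was kept with 22 counts with Aβ and 14 with DMSO, and Serpinf2 was not, with 15 and 7 counts. Among the 20 members under 100 counts, the interval stayed inside 1.5-fold for 1, Adam1a, so for the other 19 a difference of that size was neither shown nor excluded at this depth.

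**Figure D1:**
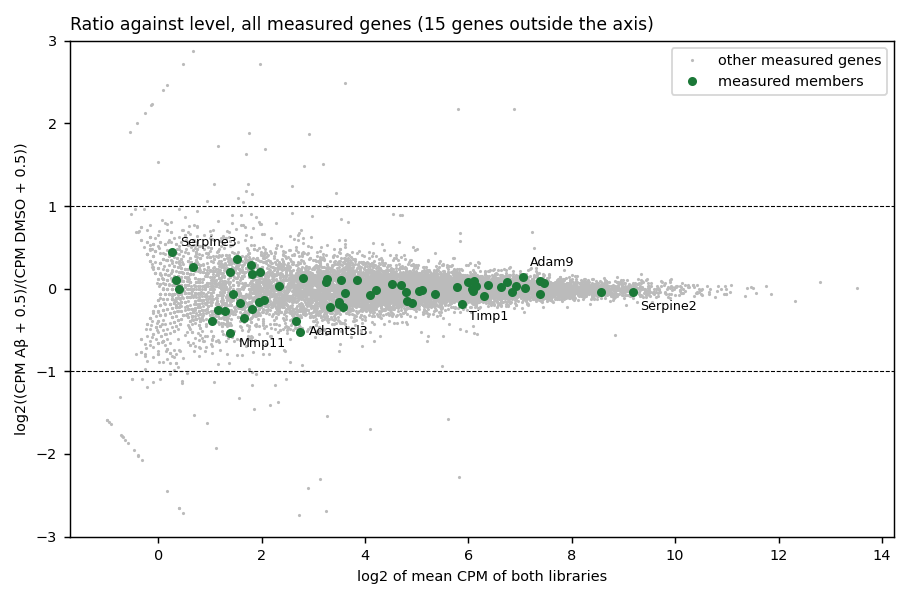
Log2 ratio of Aβ over DMSO (vertical axis, CPM + 0.5) against the log2 mean CPM of both libraries (horizontal axis). Grey points are measured genes and green points the 62 measured members, with dashed lines at 2-fold and 15 genes outside the axis. The members stay within the dashed lines, and their scatter narrows toward high counts.

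Counting intervals left out 1 for 5 of the 62 members (8.06%) and, not matched for depth, for 13.4% of all measured genes. They lay above 1 for Adam9 and Mmp14 (6.48% of measured genes) and below 1 for Timp1, Adamtsl3 and Serpine2 (6.90% of measured genes). With library sizes from DESeq2 or from total counts, the interval of Serpine2 held 1 and the other 4 still left it out. RefSeq upstream sequences were matched for 3 of these 5 genes, Serpine2, Timp1 and Adamtsl3, and are shown because they were the ones with an entry. Each is the 250 bases before the annotated start in build GRCr8, on the strand of the gene. Capitals mark the GC box GGGCGG and the Timp1 AP-1 variant TGAGTAA, on either strand, and adjoining GC boxes run together.
Serpine2, chr9:88637203-88637452, minus strand: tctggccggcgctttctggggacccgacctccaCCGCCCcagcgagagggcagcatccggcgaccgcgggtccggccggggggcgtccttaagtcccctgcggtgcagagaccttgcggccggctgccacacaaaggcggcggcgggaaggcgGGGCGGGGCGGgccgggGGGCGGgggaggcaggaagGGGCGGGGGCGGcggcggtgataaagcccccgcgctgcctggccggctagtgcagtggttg
Timp1, chrX:3771123-3771372, minus strand: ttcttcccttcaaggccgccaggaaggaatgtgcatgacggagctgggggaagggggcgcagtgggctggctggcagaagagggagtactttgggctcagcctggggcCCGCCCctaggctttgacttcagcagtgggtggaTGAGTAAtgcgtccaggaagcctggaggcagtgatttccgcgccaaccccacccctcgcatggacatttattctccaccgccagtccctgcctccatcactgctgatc
Adamtsl3, chr1:145697754-145698003, plus strand: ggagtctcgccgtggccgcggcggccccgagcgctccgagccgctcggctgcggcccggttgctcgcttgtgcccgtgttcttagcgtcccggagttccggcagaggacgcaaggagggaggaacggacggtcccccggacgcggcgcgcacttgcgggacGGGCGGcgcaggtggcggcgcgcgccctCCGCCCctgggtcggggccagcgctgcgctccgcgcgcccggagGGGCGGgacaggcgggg

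The Serpine2 window held 6 GC boxes, the Adamtsl3 window 3 and the Timp1 window 1. GGGCGG was present in 64.7% of the 51 measured members with a window and in 30.5% of all 33469 windows of this length. All windows were taken whether or not the gene was measured here, so these shares are not matched for expression. TGAGTAA, a variant AP-1 sequence known from Timp1 promoters, began 108 bases before the Timp1 start. It was present in 2.38% of all windows and in 1.96% of the 51 measured members. It was added to the search after the sequence had been seen. The AP-1 consensus TGANTCA, the TATA box TATAAA and CCAAT were in none of the 3 windows, against 6.34%, 12.9% and 34.0% of all windows. Among the 51 measured members they were in 3.92%, 13.7% and 25.5%. These are matches of letters in a newer build than the Rnor_6.0 named for the data, and nothing about binding follows from them.

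The 15 MMPs were led by the membrane-anchored enzymes and by the secreted gelatinase Mmp2. Mmp14, the membrane MMP that activates pro-Mmp2, stood at 115 TPM with Aβ and 106 TPM with DMSO, and its counts were 2601 and 2429. It was slightly higher with Aβ, at a ratio of 1.06 with a lower interval limit of 1.005 and an upper limit of 1.12. Mmp2 had 2487 counts with Aβ and 2583 with DMSO, or 86.0 and 87.7 TPM, and a ratio of 0.955 (0.903 to 1.01). Mmp15, another transmembrane MMP, was at 50.2 TPM with Aβ and 47.8 TPM with DMSO (ratio 1.02, 0.958 to 1.09). Mmp24 and Mmp16, also transmembrane, and Mmp17, held by a lipid anchor, were at 25.4, 17.5 and 13.6 TPM with Aβ, against 25.2, 17.6 and 12.7 TPM with DMSO. Taken as a set, Mmp14, Mmp15, Mmp16, Mmp17 and Mmp24 summed to 222 TPM with Aβ and 209 TPM with DMSO. The set's sums had a ratio of 1.06 in TPM and 1.025 in counts, and 4 of the 5 genes had ratios above 1.

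Other MMPs were low. Mmp19 had 148 counts with Aβ and 138 with DMSO, at a ratio of 1.06 (0.838 to 1.35). Mmp11, stromelysin-3, had fractional estimated counts of 30.7 with Aβ and 47.6 with DMSO, and its ratio of 0.640 (0.394 to 1.03) was the lowest of the measured members, with an interval that held 1. Mmp23 had 20 and 18 counts. Mmp9, the gelatinase of inflammatory cells, had 3 counts in each library. Mmp3, Mmp13, Mmp21, Mmp25 and Mmp28 had at most 2 counts in either library. Ratios were above 1 for 6 of the 9 measured MMPs, and the median log2 ratio was 0.03.

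**Figure D2:**
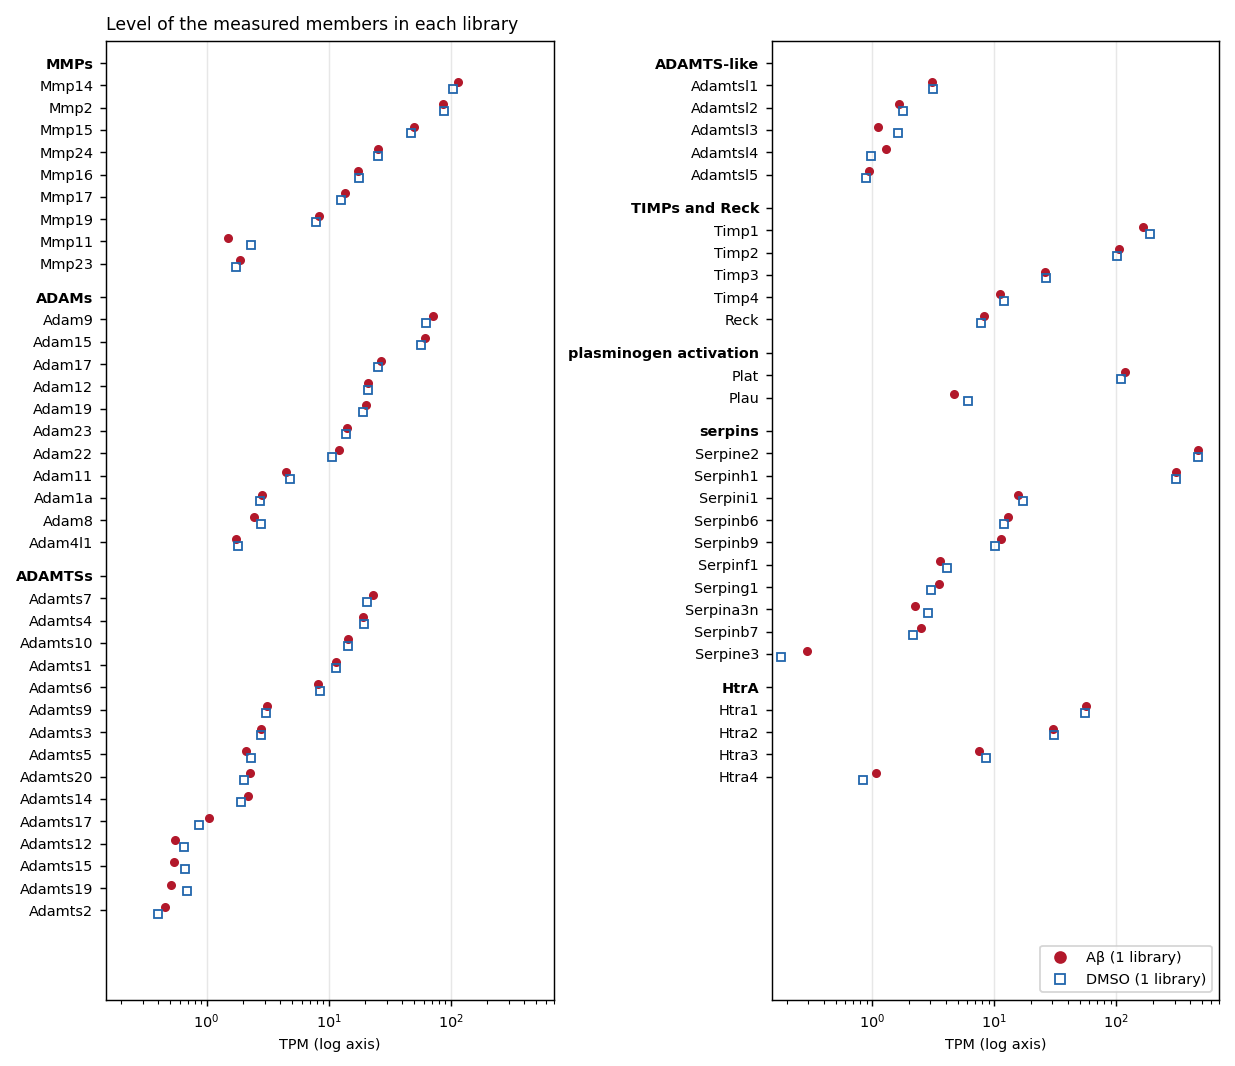
TPM on a log axis for 61 of the 62 measured members, grouped by role and sorted by level. Filled circles are the Aβ library and open squares the DMSO library, and the symbols of a gene lie close together except in some genes under about 10 TPM.

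Among 15 ADAMs, 11 were measured, 7 with ratios above 1 and 4 below, and the median log2 ratio was 0.03. Adam9, a shedding protease with a disintegrin domain, was the most abundant at 71.4 TPM with Aβ and 63.1 TPM with DMSO, from 2103 and 1894 counts. Its ratio of 1.10 (1.03 to 1.17) was the highest among members with at least 10 CPM. Adam15 was at 62.0 TPM with Aβ and 57.4 TPM with DMSO (ratio 1.05, 0.983 to 1.13). Adam17, the sheddase of tumour necrosis factor and of EGF-receptor ligands, stood at 27.0 TPM with Aβ and 25.6 TPM with DMSO (ratio 1.03, 0.942 to 1.12). The meltrins Adam12 and Adam19 were at 20.9 and 20.3 TPM with Aβ, against 20.9 and 19.1 TPM with DMSO, and Adam12 had fractional counts.

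Adam22, Adam23 and Adam11 are ADAMs without protease activity, and Adam22 is a receptor of the secreted Lgi proteins. Adam23 had 840 counts with Aβ and 823 with DMSO, Adam22 had 987 and 929, and Adam11 had 158 and 180. Their ratios were 1.01 (0.918 to 1.12), 1.05 (0.963 to 1.15) and 0.871 (0.699 to 1.08). Adam8, best known from leukocytes, had 140 counts with Aβ and 163 with DMSO, at a ratio of 0.852 (0.675 to 1.07). Adam1a had fractional counts of 77.2 and 75.1. Adam4l1 and its near-copy Adam4 shared reads, with 39.8 and 8.17 estimated counts with Aβ and 41.8 and 11.2 with DMSO, and both lie inside the Cox16 gene in GRCr8. Summed, the pair had 48 counts with Aβ and 53 with DMSO (ratio 0.898, 0.595 to 1.35). Adam2, Adam30 and Adam33 had at most 3 counts in either library.

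The ADAMTS group had 19 members, of which 15 were measured. Ratios were above 1 for 4 of them and below 1 for 11, and the median log2 ratio was -0.02, or 0.01 with TPM. Adamts7 was the most abundant at 23.1 TPM with Aβ and 20.8 TPM with DMSO, a ratio of 1.07 (0.979 to 1.16). The aggrecanases, which cut aggrecan, brevican and versican, were led by Adamts4, with 608 counts and 19.0 TPM with Aβ and 632 counts and 19.4 TPM with DMSO (ratio 0.954, 0.852 to 1.07). Adamts1 had 496 counts with Aβ and 500 with DMSO, Adamts9 had 280 and 281, and Adamts5 had 55 and 62. In TPM, Adamts4 exceeded Adamts5 by 9.03-fold with Aβ and 8.30-fold with DMSO. None of these 4 aggrecanases differed beyond counting error.

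Adamts10 and Adamts6, linked to fibrillin microfibrils, were at 14.5 and 8.15 TPM with Aβ, against 14.4 and 8.51 TPM with DMSO. The procollagen-processing enzymes Adamts2, Adamts3 and Adamts14 had 20, 181 and 111 counts with Aβ, against 20, 186 and 100 with DMSO. Adamts20, a versican-cutting relative of Adamts9, had 182 counts with Aβ and 168 with DMSO. The lowest ratio of the measured group was that of Adamts19, 0.716 (0.415 to 1.22) from 26 counts with Aβ and 36 with DMSO, and the highest that of Adamts17, 1.18 (0.806 to 1.72) from 64 and 54. Adamts12 and Adamts15 had 48 and 33 counts with Aβ, against 58 and 41 with DMSO. Adamts8, Adamts13, Adamts16 and Adamts18 stayed under the level of measurement.

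ADAMTS-like proteins share the matrix-binding modules of ADAMTSs and lack the protease domain. All 5 were measured at under 4 TPM. Adamtsl3 had 82 counts with Aβ and 120 with DMSO, or 1.11 and 1.64 TPM. Its ratio of 0.678 (0.505 to 0.905) was the lowest of those whose interval left out 1. It overlaps Saxo2, on the other strand in GRCr8, which had 26 counts with Aβ and 33 with DMSO. Adamtsl1 had 253 counts with Aβ and 265 with DMSO (ratio 0.947, 0.794 to 1.13), and Adamtsl2 had 59 and 65. Adamtsl4 had 50 counts with Aβ, against 37 with DMSO, and its interval around 1.34 ran over 0.859 to 2.11. Adamtsl5 had 27 and 21 counts, yet 0.94 and 0.89 TPM, so that its TPM ratio of 1.06 was smaller than its count ratio of 1.28.

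**Figure D3:**
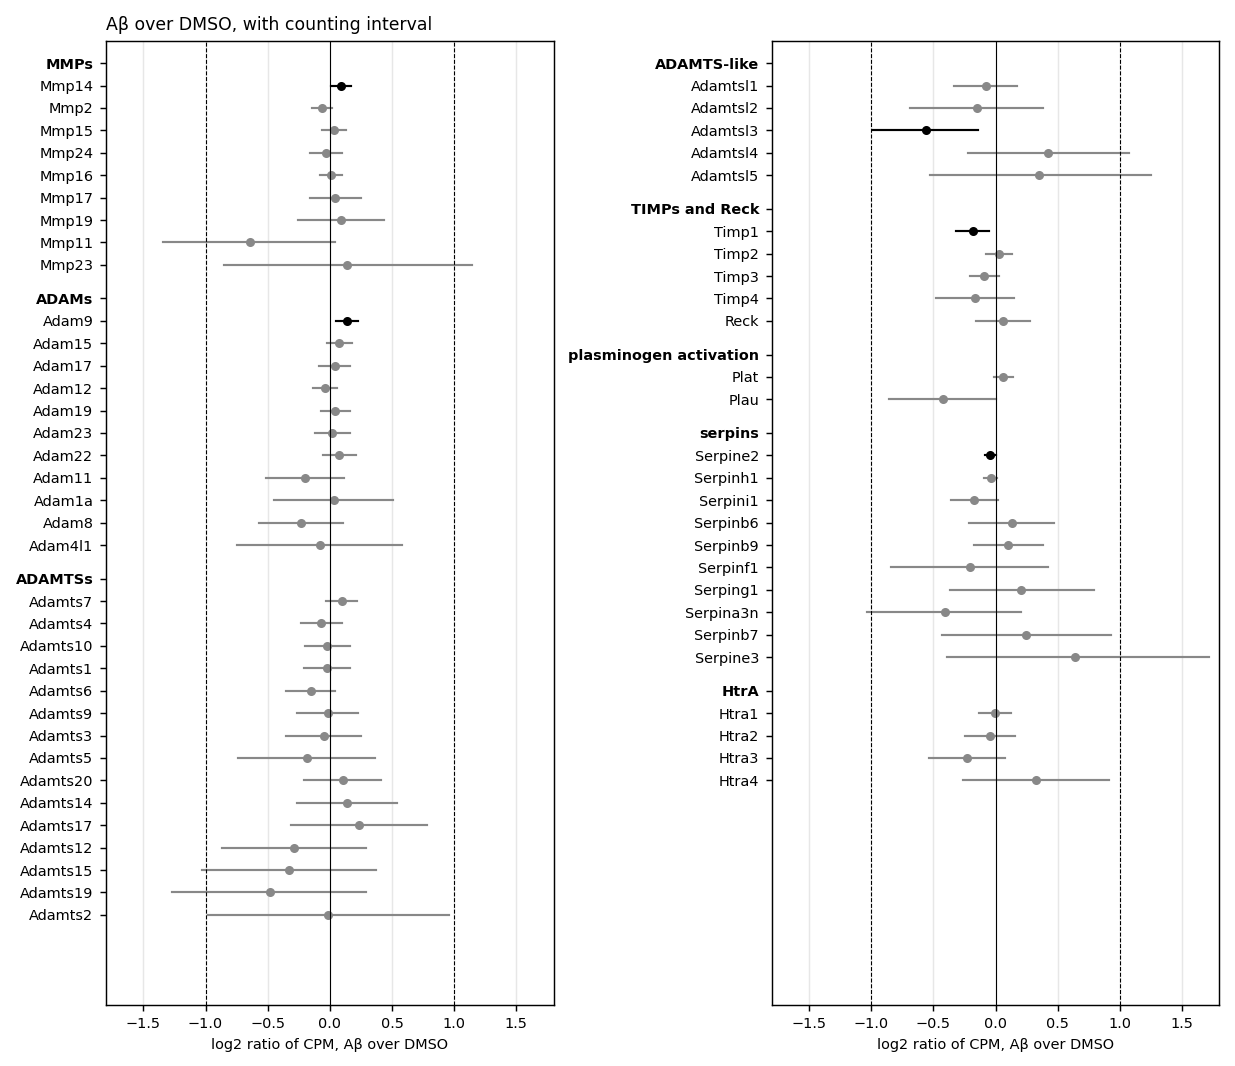
Log2 ratio of CPM, Aβ over DMSO with no pseudocount (horizontal axis), for 61 of the 62 measured members by role, with bars for the 95% counting interval and dashed lines at 2-fold. Black marks the 5 members whose interval leaves out a ratio of 1, and the remaining members are grey.

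Of the TIMPs and Reck, Timp1, an inhibitor often induced in reactive glia, was lower with Aβ. It had 829 counts and 166 TPM with Aβ, against 935 counts and 188 TPM with DMSO, and a ratio of 0.879 (0.800 to 0.967). Its log2 ratio of -0.18 was also -0.18 with TPM and was -0.15 after a trend of ratios on transcript length was removed. Timp2, the TIMP that joins Mmp14 in activating pro-Mmp2, had 1503 counts with Aβ and 1465 with DMSO (ratio 1.02, 0.946 to 1.09). Timp3, the matrix-bound inhibitor of Adam17 and of aggrecanases, had 1156 and 1222 counts (ratio 0.938, 0.865 to 1.02). Timp4 had 162 counts with Aβ and 180 with DMSO (ratio 0.893, 0.717 to 1.11).

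Reck, a membrane-anchored inhibitor of MMPs, stood at 8.25 TPM with Aβ and 7.71 TPM with DMSO (ratio 1.04, 0.895 to 1.21). The median log2 ratio of the 5 inhibitors was -0.09, with 3 below 1 and 2 above, and their summed level was 317 TPM with Aβ and 336 TPM with DMSO. Timp1, Timp3 and Timp4 lie inside the synapsin genes Syn1, Syn3 and Syn2 in GRCr8. The sources used here do not say whether counting used strand, so reads of a TIMP and of its host gene may not be fully separated. Syn1 had 1346 counts with Aβ and 1332 with DMSO. Relative to Timp2, Timp1 was 1.57 times as abundant in TPM with Aβ and 1.86 times with DMSO. Timp2 and Mmp14 were near equal, at quotients of 0.917 with Aβ and 0.959 with DMSO.

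Plasminogen activation was represented by tissue plasminogen activator. Plat had fractional counts of 2736 with Aβ and 2598 with DMSO, or 118 and 110 TPM, and a ratio of 1.04 (0.990 to 1.10). It overlaps Ikbkb in GRCr8, which had 659 counts with Aβ and 645 with DMSO. Plau, the urokinase activator, had 82 counts with Aβ and 109 with DMSO, at a ratio of 0.746 with a lower interval limit of 0.553 and an upper limit of 1.003. Plaur, the urokinase receptor, had 4 and 5 counts. Plat thus exceeded Plau by 25.3-fold in TPM with Aβ and by 18.0-fold with DMSO.

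Serpins formed the most abundant role group, with 832 TPM with Aβ and 833 TPM with DMSO. Serpine2 and Serpinh1 made up 93.5% of that level with Aβ and 93.6% with DMSO. Serpine2, or protease nexin-1, which traps thrombin and plasminogen activators, ranked number 275 among measured genes by TPM. It had 8662 counts and 469 TPM with Aβ, against 8854 counts and 471 TPM with DMSO. The ratio of counts was 0.970 with a lower limit of 0.942 and an upper limit of 0.9997, and the TPM ratio was 0.997. Serpinh1, a collagen chaperone of the endoplasmic reticulum with no inhibitor activity, had 5632 counts with Aβ and 5740 with DMSO (ratio 0.973, 0.938 to 1.01). These are the members whose ratio was measured most precisely.

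Lower serpins included Serpini1, or neuroserpin, a neuronal inhibitor of tissue plasminogen activator, with 429 counts with Aβ and 479 with DMSO (ratio 0.888, 0.778 to 1.01). The intracellular inhibitors Serpinb6 and Serpinb9 had 151 and 224 counts with Aβ, against 137 and 207 with DMSO. Serpinb6 is listed in RefSeq as Serpinb6a and overlaps Ripk1 and Nqo2. The reactive-glia gene Serpina3n had 41 and 54 counts (ratio 0.753, 0.489 to 1.15), the complement C1 inhibitor Serping1 had 57 and 49, and Serpinf1, or pigment epithelium-derived factor, had 42 and 48. Serpinb7 had 43 counts with Aβ and 36 with DMSO. Serpine3, which lies inside Ints6, had the highest ratio of measured members, 1.56 (0.763 to 3.29) from 22 and 14 counts. Ratios were above 1 for 5 of 11 measured serpins, and the median log2 ratio was -0.04, or -0.002 with TPM.

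Among the HtrA serine proteases, Htra1 and Htra2 had similar values with Aβ and DMSO, and the lower Htra3 and Htra4 had wider intervals. Htra1, a secreted protease, had 1019 counts with Aβ and 1014 with DMSO (ratio 0.997, 0.913 to 1.09). Htra2, a mitochondrial protease, had 410 and 420 counts (ratio 0.968, 0.843 to 1.11). Htra3 had 166 counts with Aβ and 193 with DMSO (ratio 0.853, 0.689 to 1.06), and Htra4 had 58 and 46 (ratio 1.25, 0.835 to 1.88). The intervals of all 4 held 1, and that of Htra4 reached beyond 1.5-fold.

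**Figure D4:**
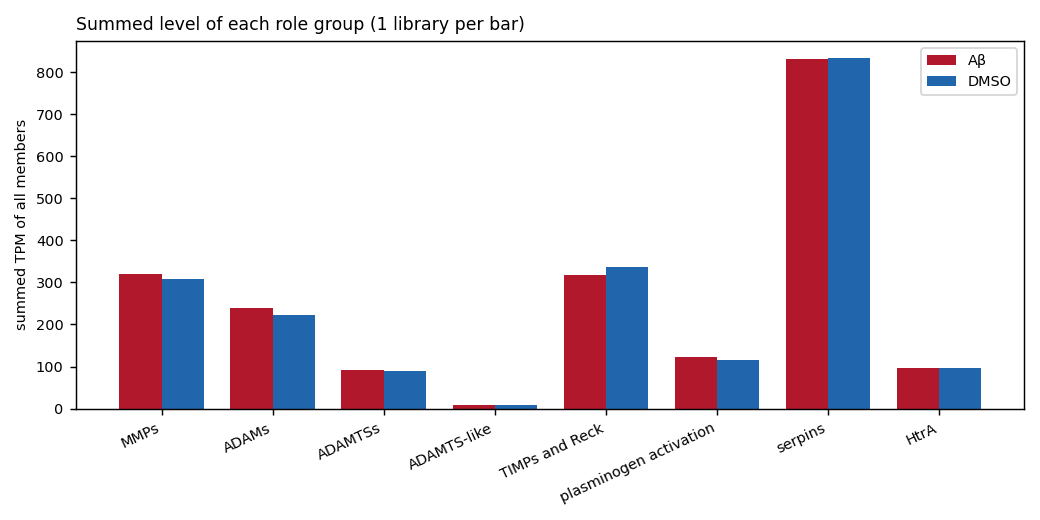
Summed TPM of all members of each role group (vertical axis), with the Aβ library on the left of each pair and the DMSO library on the right, 1 library per bar. Serpins are the tallest pair at 832 and 833 TPM, and ADAMs stand at 240 and 223 TPM. The ADAM sums have a ratio of 1.07 in TPM and 1.03 in counts. With TPM the median log2 ratio of all measured genes was 0.0367.

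Summed over all 84 members, the level was 2028 TPM with Aβ and 2012 TPM with DMSO, or 0.203% and 0.201% of all transcripts. Serpine2, Serpinh1, Timp1, Plat and Mmp14 held 58.0% of this sum with Aβ and 58.8% with DMSO. With Aβ and with DMSO alike, 6 members reached 100 TPM and 29 reached 10 TPM. The 22 members under the level of measurement had at most 15 counts in a library. Of the 84, 5 had no count with Aβ and 6 none with DMSO, and no member was at 0 in both. A count of 0 allows up to 3 counts at this depth. The remaining members not named above, Serpina10, Serpina11, Serpinb11, Serpinb1a, Serpinb6b and Serpinb8, had at most 4 counts in either library.

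Genes around these proteases were described from 7 lists, and none of their measured members was called. Counting intervals narrow with depth, and the shares of all measured genes set beside these lists are not matched for depth. The plasmin system and its receptors had the lowest median log2 ratio, -0.11, with 3 of 11 measured genes above 1 and 8 below, and the counting interval lay below 1 for 7 genes and above 1 for 1, against 6.90% and 6.48% of all measured genes. S100a10 and Anxa2, which form a cell-surface receptor for plasminogen and tissue plasminogen activator, had 2447 and 1367 counts with Aβ, against 2822 and 1546 with DMSO. Their ratios were 0.860 (0.814 to 0.908) and 0.877 (0.815 to 0.944). The plasminogen receptor Plgrkt stood at 0.831 (0.723 to 0.955). Lrp1, the endocytic receptor that clears serpin-protease complexes, lay the other way at 1.08 (1.05 to 1.11), from 10147 counts with Aβ and 9325 with DMSO. Plg itself had 6 and 10 counts. The list median was -0.08 with TPM and -0.11 after removal of the length trend.

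The list of other protease inhibitors, drawn broadly to include Sparc and Pebp1, also lay mostly below 1, in 12 of 15 measured genes. It had 4 intervals below 1, that of Pebp1 among them, and 0 above. Of all measured genes, 49.7% had ratios above 1 and 6.90% had intervals below 1. The list's median log2 ratio of -0.06 was -0.03 with TPM and -0.04 without the length trend. Cst3, the abundant cystatin C, had 9970 counts with Aβ and 10277 with DMSO (ratio 0.962, 0.936 to 0.989). Cd109, a relative of alpha-2-macroglobulin, had 199 and 265 counts (ratio 0.745, 0.617 to 0.899), and Tfpi2, a Kunitz inhibitor of plasmin that is also in the plasmin list, had 11 and 25 counts (ratio 0.436, 0.194 to 0.9195).

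Matrix substrates and shed substrates lay mostly above 1. Among 18 matrix substrates, 12 had ratios above 1, with 3 intervals above 1 and 1 below, beside 49.7%, 6.48% and 6.90% of all measured genes. Their median log2 ratio of 0.04 was 0.01 without the length trend. Ncan and Bcan, brain proteoglycans cut by aggrecanases, stood at 1.13 (1.10 to 1.165) and 1.11 (1.07 to 1.14), and Postn, a matricellular protein, at 0.742 (0.646 to 0.853). Of 22 measured ADAM substrates, 18 lay above 1, with 5 intervals above 1 and 0 below, beside the same shares of all genes. The median was 0.06, or 0.04 without the length trend. The Notch ligand Dll1 stood at 1.17 (1.08 to 1.27) from 1387 counts with Aβ and 1176 with DMSO, and its receptor Notch1 at 1.08 (1.04 to 1.12).

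The remaining lists had medians close to even. Cofactors and maturation factors had a median of 0.01, with 9 of 16 above 1. Their largest ratio was that of the tetraspanin Tspan33, 1.59 (1.21 to 2.09) from 144 counts with Aβ and 90 with DMSO, and the activating protease Furin stood at 1.02 (0.928 to 1.12). Other secreted or lysosomal proteases had a median of 0.02, or -0.0025 with no filter on level. Ratios were above 1 for 7 of 13 measured genes, among them cathepsin B (Ctsb) at 1.05 (1.01 to 1.10), while the procollagen protease Bmp1 stood at 0.933 (0.877 to 0.992). Partners of Adam22 and Adam23 had a median of 0.01, with 4 of 8 above 1, but its sign was not stable, at -0.05 with a 10 CPM filter and -0.01 without the length trend. In this list 2 intervals lay below 1 and 0 above, against 6.90% and 6.48% of all measured genes. They were those of Dlg4 at 0.921 (0.874 to 0.970), from 2777 counts with Aβ and 2992 with DMSO, and Lgi4 at 0.853 (0.735 to 0.989).

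**Figure D5:**
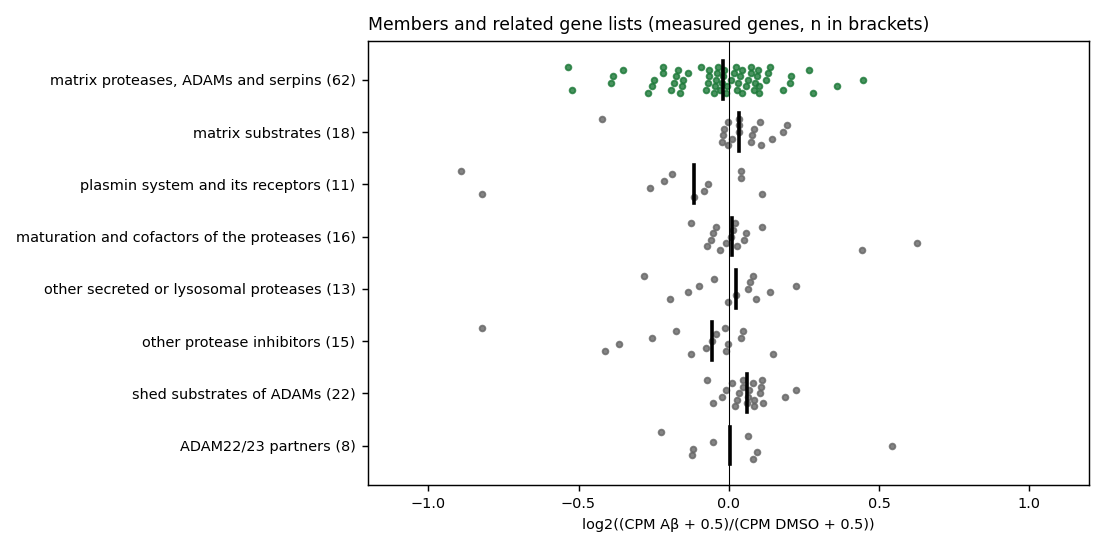
Log2 ratio of Aβ over DMSO (CPM + 0.5, horizontal axis) for the measured genes of each list, with n in brackets and a black bar at the median. The 62 members are centred near 0 at -0.02, the plasmin system lies at -0.11 and ADAM substrates at 0.06.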

How the data were processed

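Per the labels' protocols, libraries were made from total RNA with a BGI mRNA kit. The submitters' processing notes name Bowtie2 and build Rnor_6.0. No quantifier, annotation or strand setting is named there. The authors deposited estimated counts, TPM (per transcript length, scaled to one fixed total) and FPKM (per transcript length and depth), per the file headers. A further column repeated the counts, rounded up and divided by a constant, and was not used.

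Counts were rounded for intervals and library factors. Effective library sizes came from TMM in edgeR 4.0.16 (R 4.3.3), and DESeq2 1.42.0 size factors were an alternative. Each ratio's exact 95% interval (Clopper-Pearson) treats the 2 counts of a gene as shares of their sum. Reads without molecular identifiers are not independent molecules, so these intervals cover counting error only. Calls needed 1 CPM, 2-fold on CPM + 0.5 and an interval without 1. With 1 library per group there were no p-values. Fractional counts were listed for 7 members. The ratio code was tested on simulated data.

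Members, lists and rules were chosen with earlier results of these data known. Members were named by level, by ratio and from a panel. Of the 62 measured members, 61 are named, and 1 serpin is counted in the totals and not reported here. Protein features were not analysed here. Upstream sequences are from RefSeq (GRCr8) and were matched by gene identifier for 61 of 84 members.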

Additional observations from a re-analysis of the deposited data

How the results depend on the processing

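No member was called at 2-fold under any of the 11 alternatives run, including 1.5-fold, TPM and no filter on level. Members whose counting interval left out 1 numbered 5, or 4 with DESeq2 size factors, with total counts (Serpine2 dropped out in both) and at 10 CPM (Adamtsl3 dropped out). The sign of a member's log2 ratio differed from the main value in 12 cases, 8 with TPM, for members whose log2 ratio was at most 0.0369 in size. TPM shifted the median of all genes to 0.0367, and that of the members to 0.013 in place of -0.018. The other alternatives gave member medians from -0.033 (length trend removed) to -0.0044 (no filter). Medians of ADAMTSs and HtrA were 0.008 and 0.011 with TPM in place of -0.023 and -0.025, and that of Adam22 and Adam23 partners ran from -0.052 (10 CPM filter) to 0.063 (whole counts only). The summed level of members had an Aβ over DMSO ratio of 1.01 in TPM and 0.981 in FPKM, whose library totals differ. No paired analysis was possible because each condition has 1 library. The counting interval reached beyond 1.5-fold in 19 of 20 members under 100 counts, and no spread between cultures could be measured.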
